A study of Mus musculus with 36 samples.

Results

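Pairs of kidney tumors from the same mouse were compared with each other, gene by gene, to ask how much 2 tumors of 1 animal differed in RNA. The members were every library of a mouse with 2 kidney tumor libraries. These were 10 of the 11 kidney tumor libraries and came from 5 of the 6 fusion mice, out of 36 libraries in the whole series. The labels alone decided which libraries entered, although the comparison itself was chosen with earlier results of these data known. Tumor mice 1, 2, 3, 4 and 6 (H0055, H0072, H0218, H0319 and H0372) gave a tumor 1 and a tumor 2 each, where tumor 1 of mouse 1 bears the label KT1a. Tumor mouse 5 (H0322) gave a single kidney tumor and entered no pair. The comparison group was 6 libraries of control kidney, 2 pieces from each of 3 control mice (control mice 1, 2 and 3).

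All tumor mice carried Sglt2-Cre together with 1 ASPSCR1-TFE3 LSL allele, whose stop cassette Cre removes, and the control mice carried Sglt2-Cre alone, so that Cre was common to both groups. Sglt2 is the glucose transporter of the early proximal tubule, and its promoter therefore confines Cre mainly to that segment. The tissue was formalin-fixed and embedded in paraffin, and total RNA was sequenced without removal of ribosomal RNA. The labels give neither age nor sex for these comparisons, and they do not say whether the tumors or the control pieces of a mouse lay in 1 kidney or in both. Each tumor was sequenced once. A difference within a pair is therefore 1 library against 1, and its error was taken from the spread between the pieces of the control mice.

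TFE3 belongs to the MiT/TFE family of transcription factors, which switch on genes of lysosomes, autophagy and the lysosomal side of mTORC1 signaling. Fusions such as ASPSCR1-TFE3 act as constantly active forms of the factor and are found in human alveolar soft part sarcoma and in TFE3-rearranged renal cell carcinoma. Tumors of this family often produce GPNMB, cathepsin K or pigment cell proteins such as PMEL, because the related factor MITF controls the same genes in melanocytes. In bulk RNA of a tumor, transcripts of tumor cells, of enclosed kidney tubules, of vessels and stroma, and of neighboring tissue add up. Fewer cells of a type and less RNA per cell cannot be told apart.

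Total counts were 95205356 to 119317777 in the paired tumors and 106242404 to 120153158 in the control pieces, so that depth was alike in both groups. Levels are given as CPM, counts divided by the library total after TMM scaling. Gpnmb, a lysosomal glycoprotein under direct MiT/TFE control, lay between 2440 and 8360 CPM in the 10 tumors and between 0.958 and 3.18 CPM in the 6 control pieces, with no overlap. The mouse genes at either end of the fusion did not differ within pairs by the joint test described below: Tfe3 lay between 18.2 and 37.2 CPM in tumors and between 17.2 and 25.2 CPM in controls (edgeR adjusted p = 0.242), and Aspscr1 between 17.7 and 28.3 CPM and between 26.1 and 38.4 CPM (adjusted p = 0.731). The fusion transcript itself was not analysed here. One library stood apart before any test. In tumor 2 of mouse 2 the median level of X-linked genes, set against autosomal genes and the controls, was 0.823 log2 units up, against -0.045 to 0.126 in the 10 other kidney tumors and -0.034 to 0.041 in the control pieces. The main counts are given below with and without this mouse, and joint counts of gene lists where leaving it out changed them by 1.5 times or more.

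Tumors of the same mouse differed more than control pieces of the same mouse. Over 14958 genes with a mean of at least 1 CPM, the median absolute log2 difference between the tumors of a pair was 0.262, 0.496, 0.34, 0.288 and 0.209 in mice 1, 2, 3, 4 and 6, and 0.198, 0.176 and 0.14 in control mice 1, 2 and 3. Every tumor pair lay above every control pair, although the pair of mouse 6 did so by little. The means were 0.319 ± 0.11 (SD, n = 5) and 0.172 ± 0.0292 (SD, n = 3), a difference of 0.147 with p = 0.0357 by a two-sided exact permutation test over pairs, the smallest p that 5 against 3 allows. Without mouse 2 the difference was 0.105 with p = 0.0571 by the same exact test, the smallest that 4 against 3 allows. Without a filter on low genes the difference was 0.143 with p = 0.107, and with genes of at least 10 CPM it was 0.118 with p = 0.0714, by the same exact permutation test.

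**Figure D1:**
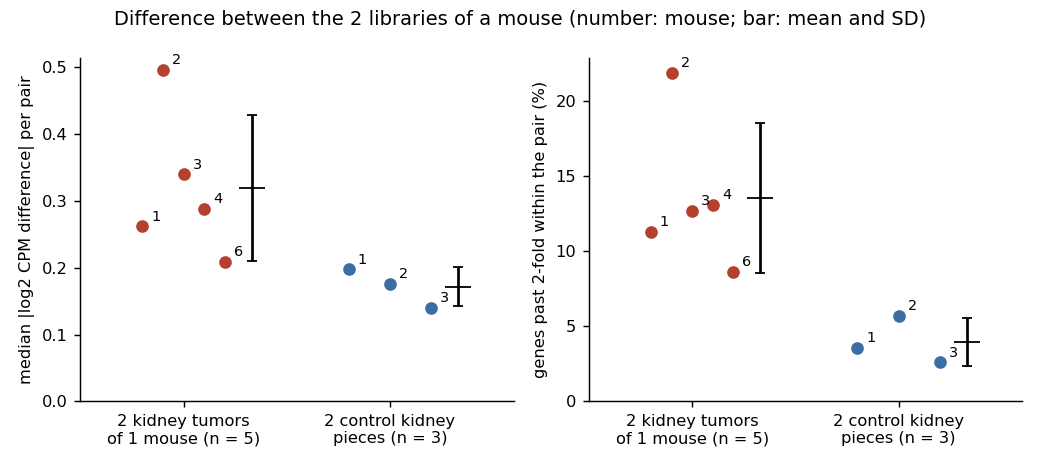
For each of the 8 pairs the panels show the median absolute log2 difference between its 2 libraries and the percentage of genes past a 2-fold difference, with tumor pairs and control pairs as separate points and the mean with its SD. The 5 tumor pairs sit between 0.209 and 0.496 in the median, above the control pairs at 0.14 to 0.198, and mouse 2 is the highest in both panels.

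The share of genes past a 2-fold difference was also highest in mouse 2. It was 11.3%, 21.9%, 12.7%, 13.1% and 8.63% in tumor mice 1, 2, 3, 4 and 6, which corresponds to 1689, 3276, 1899, 1958 and 1291 genes. In control mice 1, 2 and 3 it was 3.58%, 5.71% and 2.61%. The means were 13.5 ± 5% (n = 5) and 3.97 ± 1.58% (n = 3), with p = 0.0357 by the two-sided exact permutation test. The groups did not overlap in this measure. Without mouse 2 the mean of the tumor pairs was 11.4%. The share past 4-fold ran from 2.13% to 6.42% in tumor pairs and from 0.588% to 1.93% in control pairs.

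A joint test asked which genes differed within the 5 tumor pairs by more than the control pieces of a mouse differed from each other. In the edgeR quasi-likelihood fit of the 16 libraries each mouse had its own level and each tumor pair its own difference, so that the 3 control pairs alone set the error, with 3 residual degrees of freedom. Of 20915 genes tested, 3188 were called at an adjusted p under 0.05, or 15.2%. The error rests on few animals. Without control mouse 3, whose pieces were the most alike, 912 of 21543 genes were called (4.23%), without tumor mouse 2 1864 of 20564 (9.06%), and limma on the absolute differences of all 8 pairs called 0 of 14958 genes, with 534 at an unadjusted p under 0.05. For this reason counts below are followed by the count without control mouse 3. The control pairs were also not independent of each other: their differences between piece 1 and piece 2 correlated across genes at 0.14 to 0.41. With a term for this shared difference, a replicate block in the controls that leaves 2 residual degrees of freedom, 5143 genes were called (24.6%). This alternative was chosen after seeing the data, and list counts under it are given where they moved by more than 1.5 times.

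The pairs contributed very unequally. In mouse 2, 4081 genes differed (19.5%), 1738 of them higher in tumor 1 and 2343 higher in tumor 2. Mouse 3 followed with 1006 (4.81%; 525 and 481), mouse 4 with 878 (4.2%; 499 and 379), mouse 1 with 738 (3.53%; 669 and 69) and mouse 6 with 187 (0.894%; 102 and 85). The calls of mouse 1 were almost one-sided, with 90.7% higher in tumor 1. Those of mouse 3 turned with the scaling, from 525 against 481 under TMM to 397 against 573 under upper quartile scaling. When control mouse 3 was left out, 1.71% of 21543 tested genes were called in mouse 1, 8.43% in mouse 2, 0.914% in mouse 3, 0.914% in mouse 4 and 0.0557% (12 genes) in mouse 6. Without control mouse 2 the counts were 1349 in mouse 4 and 282 in mouse 6. With the replicate block in the controls 5.49%, 25.2%, 8.35%, 8.45% and 2.23% of genes were called in mice 1, 2, 3, 4 and 6. In the lists below, a gene counted as higher in a tumor is one called in that pair. Of the genes called in any pair, 4271 were called in 1, 859 in 2, 225 in 3, 49 in 4 and 6 in all 5. The 5 tests share the control error, so these counts are a description.

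On the median, tumors of the same mouse were more alike than tumors of different mice, with overlap. The median absolute log2 difference was 0.288 (range 0.209 to 0.496) over the 5 pairs within mice and 0.47 (0.284 to 0.672) over the 40 pairs of tumors from different mice, of which 16 lay above every within-mouse value and 24 did not. In controls the values were 0.176 (0.14 to 0.198) within and 0.226 (0.141 to 0.368) between mice. The ratio of the between-mouse to the within-mouse difference was 1.92, 0.96, 1.24, 1.66 and 2.19 in tumor mice 1, 2, 3, 4 and 6. In mouse 2, then, its own tumors lay as far from each other as from tumors of other mice, whereas in mouse 6 they were clearly nearer to each other. The ratio was 1.36, 1.06 and 1.43 in the control mice. The mean ratio was 1.59 ± 0.5 (SD, n = 5) in tumors and 1.28 ± 0.2 (SD, n = 3) in controls. Gene by gene, the between-mouse median was the larger for 80.8% of the 14958 genes in tumors and for 63.8% in controls. These shares were not tested.

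**Figure D2:**
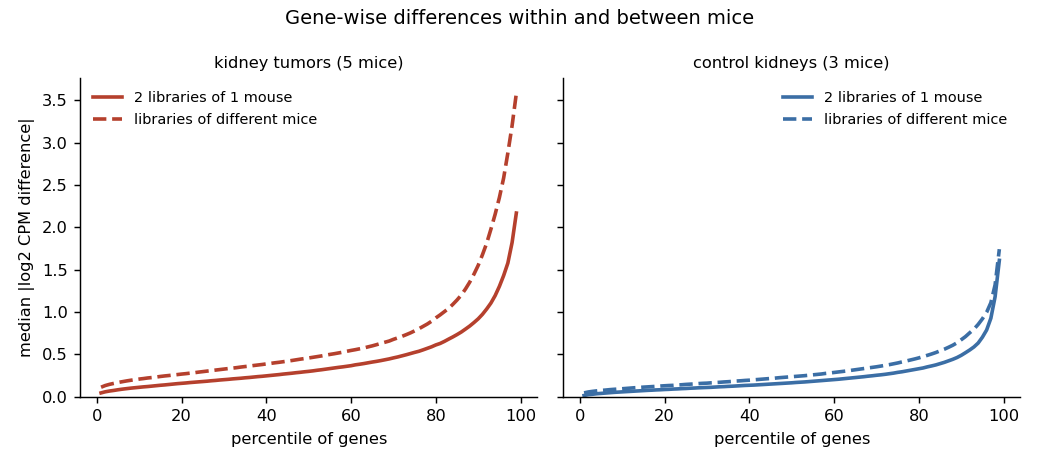
The panels show, for kidney tumors and for control kidney, the median absolute log2 difference per gene against the percentile of genes. Solid lines give the 2 libraries of 1 mouse and dashed lines give libraries of different mice. At the median gene the tumor lines stand at 0.3 within and 0.458 between mice, and the control lines at 0.165 and 0.237.

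By correlation of log2 CPM across the 14958 genes, which are not independent of each other, the most similar tumor came from the same mouse in 4 of 10 cases, and in controls in 3 of 6. Tumor 1 and tumor 2 of mouse 6 were each other's nearest at r = 0.976. Tumor 1 of mouse 1 was nearest to tumor 2 of mouse 4 (r = 0.938, against 0.933 for its partner), and both tumors of mouse 3 were nearest to tumors of mouse 6 (0.961 and 0.967, against 0.953). The tumors of mouse 2 had the lowest correlation with each other (0.905) and each stood nearer to a tumor of mouse 3 (0.929 and 0.922). Pairs of a kidney tumor and a brain or retro-orbital tumor of the same mouse differed by 0.447 to 0.796 (12 pairs of libraries), each more than 4 of the 5 kidney pairs.

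The lysosomal program of the fusion was present in both tumors of every pair. The summed level of 20 MiT/TFE targets was 9690 and 11600 CPM in tumors 1 and 2 of mouse 1, 19000 and 12400 in mouse 2, 20000 and 16600 in mouse 3, 7970 and 12000 in mouse 4, and 16400 and 17500 in mouse 6, against 2880 to 3380 CPM in control pieces. Of the 20 genes 5 were called in the joint test (25%, beside 15.2% of all genes), 0 without control mouse 3, 1 without tumor mouse 2 and 11 with the replicate block in the controls, beside 4.23%, 9.06% and 24.6% of all genes. Their median absolute log2 difference was 0.3, 0.29, 0.28, 0.57 and 0.19 in mice 1, 2, 3, 4 and 6, beside 0.32, 0.6, 0.4, 0.37 and 0.27 over all genes tested. Only in the pair of mouse 4 was the value for the list above that for all genes, and there tumor 1 was the lower one.

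Gpnmb stood at 2870 and 4360 CPM in mouse 1, 8360 and 3730 in mouse 2, 7640 and 6050 in mouse 3, 2440 and 4570 in mouse 4, and 5990 and 6260 in mouse 6, and did not pass the joint test (edgeR adjusted p = 0.477). In mouse 2, 5 targets were higher in tumor 1 and 1 was higher in tumor 2 (1 and 0 without control mouse 3), or 30% of the list beside 19.5% of all genes (8.43%). Fnip1, a partner of folliculin in lysosomal nutrient sensing, was at 720 and 366 CPM there (log2 difference 0.96 ± 0.16 SE, adjusted p = 0.0118, and 0.038 without control mouse 3). In mouse 4, 2 targets were lower in tumor 1, and 0 without control mouse 3, beside 4.2% and 0.914% of all genes. Mcoln1, the calcium channel of the lysosome, was at 101 and 174 CPM (-0.82 ± 0.15, adjusted p = 0.0348), and Sqstm1, the autophagy receptor p62, at 251 and 490 CPM (-1.0 ± 0.17, adjusted p = 0.0296). Without control mouse 3 the adjusted p of these genes of mouse 4 was 0.0978 and 0.0694.

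Of 13 lysosomal mTORC1 regulators, 2 were called jointly, a share of 15.4% that lay at the 15.2% of all genes, and 0 were called without control mouse 3 or without tumor mouse 2 and 4 with the replicate block. The pair of mouse 2 held the calls: 6 members (46.2%, beside 19.5% of all genes) were higher in its tumor 2 and 0 in tumor 1, with 1 left without control mouse 3, beside 8.43%. Rragb, a Rag GTPase encoded on the X chromosome, was at 238 and 434 CPM (-0.88 ± 0.2, adjusted p = 0.0274), beside 5.58 to 7.3 CPM in controls. Mtor itself was at 255 and 528 CPM (-1.06 ± 0.24, adjusted p = 0.0277). Without control mouse 3 these were at 0.0591 and 0.055.

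Pigment cell genes came and went between tumors of the same mouse. Of the 10 markers, 8 were abundant enough to test, and 4 were called jointly (3 of 9 tested without control mouse 3), beside 15.2% of all genes (4.23%). Pmel, which forms the fibrils of the melanosome, was at 37.4 and 30.8 CPM in mouse 1, 500 and 1.25 in mouse 2, 20.3 and 3.8 in mouse 3, 120 and 6.68 in mouse 4, and 1.44 and 4.7 in mouse 6, beside 0.23 to 0.683 CPM in controls. Both tumors of every pair thus lay above the controls, while in mice 2 and 4 only tumor 1 reached 100 CPM. The log2 difference was 8.63 ± 0.58 in mouse 2 (edgeR adjusted p = 0.00124), 4.13 ± 0.47 in mouse 4 (0.00911) and 2.44 ± 0.44 in mouse 3 (0.0329). Leaving out control mouse 3 gave p = 0.0823 for mouse 3 and kept the other calls.

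Dct, dopachrome tautomerase of the melanin pathway, was at 413 CPM in tumor 1 of mouse 4 and at 0.896 CPM in tumor 2 (8.81 ± 0.56, adjusted p = 0.00242), and the 8 tumors of the other mice held 0.124 to 0.938 CPM. Control pieces had at most 18 counts of it, so its error there rests on few reads. In the brain tumors of mice 4 and 2, scaled together with all 28 libraries of these animals and the controls, Dct stood at 839 and 474 CPM. In the brain tumor of mouse 1 it was at 0.232 CPM. The retro-orbital tumor of mouse 5 held 99.5 CPM and the non-transformed kidney of mouse 3 held 36.6 CPM. Trpm1, a cation channel of melanocytes, stood at 31.5 to 960 CPM over the 10 tumors, with its extremes in 1 pair: 305 and 52.7 CPM in mouse 2 (2.52 ± 0.69, adjusted p = 0.0468) and 960 and 31.5 CPM in mouse 6 (4.93 ± 0.77, adjusted p = 0.0499), beside 0.107 to 0.803 CPM in controls. Without control mouse 3 its adjusted p was 0.102 and 0.169, and that of mouse 6 was also 0.0509 without tumor mouse 3. In mouse 6 the tumor with more Trpm1 had less Pmel than its partner, at 1.44 against 4.7 CPM, a Pmel difference that did not pass the test. Ctsk, the cysteine protease cathepsin K, was higher in tumor 1 of mouse 2, at 32.1 and 12.5 CPM (1.34 ± 0.22, adjusted p = 0.0117), and lower in tumor 1 of mouse 3, at 10.8 and 35 CPM (-1.67 ± 0.22, adjusted p = 0.0139, and 0.0582 without control mouse 3). Tyr, the rate-limiting enzyme of melanin synthesis, had at most 0.0394 CPM in any tumor.

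**Figure D3:**
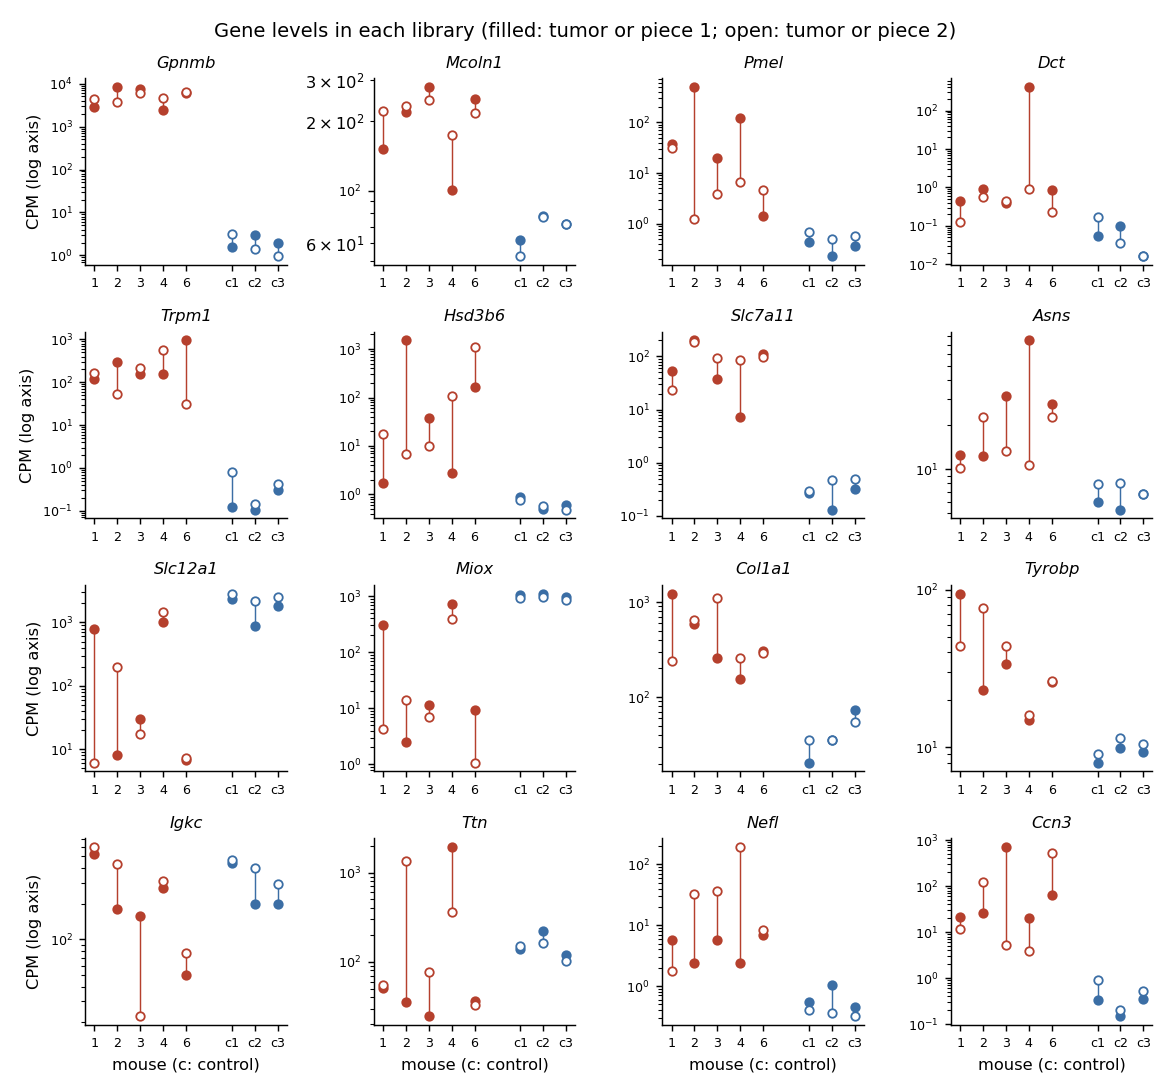
Levels of 16 genes in CPM on a log axis, with the 2 tumors of each mouse joined by a line and the control pieces beside them. Gpnmb differs within a pair by at most the 8360 against 3730 CPM of mouse 2, whereas Pmel, Dct, Trpm1 and Hsd3b6 drop or climb steeply in single mice, for example Dct from 413 to 0.896 CPM in mouse 4.

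Hsd3b6, a steroid dehydrogenase of the 3-beta family, was the gene with the largest median difference within pairs among abundant genes called jointly (joint edgeR adjusted p = 0.000292). It was at 1.74 and 17.4 CPM in mouse 1, 1520 and 6.73 in mouse 2, 37.4 and 9.8 in mouse 3, 2.79 and 108 in mouse 4, and 162 and 1080 in mouse 6, beside 0.487 to 0.876 CPM in controls. Every tumor lay above every control, and in each mouse 1 tumor held several times the level of the other. It was 1 of the 6 genes called in all 5 pairs, and each of these calls was kept without control mouse 3. The log2 difference was -3.33 ± 0.19 in mouse 1, 7.8 ± 0.23 in mouse 2, 1.96 ± 0.18 in mouse 3, -5.31 ± 0.21 in mouse 4 and -2.74 ± 0.18 in mouse 6, with edgeR adjusted p of 0.000373, 0.000148, 0.0054, 0.00102 and 0.00681. Between mice the same gene did not pass (adjusted p = 0.272).

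The enzymes listed with it were UDP-glucuronosyltransferases, which conjugate drugs, bile pigments and steroids, and the other Hsd3b forms. Of these 13, 10 were called jointly, and 7 without control mouse 3, beside 15.2% and 4.23% of all genes. In mouse 2, 8 were higher in tumor 1 and 0 in tumor 2 (5 and 0 without control mouse 3), beside 19.5% of all genes called (8.43%). In mouse 4, 5 were higher in tumor 2 and 1 in tumor 1 (1 and 1), beside 4.2% (0.914%). Ugt2b35 was at 891 and 125 CPM in mouse 2 (2.81 ± 0.34, adjusted p = 0.00522) and at 16.7 and 349 CPM in mouse 4 (-4.41 ± 0.37, adjusted p = 0.00477), and the controls held 0.0168 to 0.166 CPM, at most 18 counts. The error of its differences, taken from the controls, thus rests on few reads. Ugt2b38, which unlike Ugt2b35 is a gene of normal kidney here at 100 to 205 CPM in controls, was at 139 and 1.23 CPM in mouse 1 (6.8 ± 0.39, adjusted p = 0.000372) and at 261 and 49.7 CPM in mouse 4 (2.36 ± 0.31, adjusted p = 0.0154, and 0.0313 without control mouse 3). In the 6 tumors of mice 2, 3 and 6 it was at 1.59 to 3.13 CPM, with no call. The Ugt1a genes share their last exons, so that counts of single members are uncertain.

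Stress genes had the most calls in mouse 4, where 4.2% of all genes were called (0.914% without control mouse 3). Of 11 NRF2 targets, genes of the antioxidant response, 7 were called jointly (3 without control mouse 3), beside 15.2% of all genes (4.23%). In mouse 4, 6 were higher in tumor 2 and 0 in tumor 1 (3 and 0). The cystine transporter Slc7a11 was at 7.16 and 86.1 CPM there (-3.62 ± 0.56, adjusted p = 0.0229, and 0.0689 without control mouse 3), and Srxn1, which repairs oxidized peroxiredoxins, at 7.77 and 31.5 CPM (-2.05 ± 0.21, adjusted p = 0.00668, and 0.0331). The same pair went the other way for ATF4 targets, genes of amino acid supply: of 11 tested, 6 were called jointly (1 without control mouse 3), and in mouse 4, 4 were higher in tumor 1 and 1 in tumor 2, with 1 and 0 left without control mouse 3. Asns, asparagine synthetase, was at 75 and 10.7 CPM in mouse 4 (2.78 ± 0.34, adjusted p = 0.0125, and 0.0503). In mouse 3, 0 NRF2 targets were called by edgeR (5 at an unadjusted p under 0.05), and 3 ATF4 targets were higher in tumor 1, with 0 left without control mouse 3, beside 4.81% and 0.914% of all genes. At an unadjusted p under 0.05 there were 8 ATF4 targets in mouse 3 and 7 in mouse 4. Phgdh, which opens serine synthesis, stood at 19.1 and 5.23 CPM there (1.89 ± 0.37, adjusted p = 0.0402, and 0.0851).

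Glycolytic and hypoxia genes differed chiefly in mouse 2, where 6 of 12 were higher in tumor 2 and 0 in tumor 1 (5 and 0 without control mouse 3), beside 19.5% of all genes called in that pair (8.43%). Jointly 5 were called, 3 without control mouse 3, 3 without tumor mouse 2 and 9 with the replicate block in the controls, beside 15.2%, 4.23%, 9.06% and 24.6% of all genes. Pgk1, an enzyme of glycolysis encoded on the X chromosome, was at 374 and 983 CPM (-1.41 ± 0.14, adjusted p = 0.00356), and the autosomal Ldha, lactate dehydrogenase A, at 149 and 312 CPM (-1.08 ± 0.13, adjusted p = 0.00475). In mouse 3 the glucose transporter Slc2a1 was at 107 and 32.6 CPM (1.73 ± 0.31, adjusted p = 0.0331, and 0.0582 without control mouse 3). There 3 members were higher in tumor 1 and 0 in tumor 2, and without control mouse 3 the counts were 0 and 0, beside 4.81% and 0.914% of all genes.

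Proliferation genes summed to more than in any control piece in each of the 10 tumors and had the most calls within a pair in mouse 1. Their sum was 954 and 420 CPM in mouse 1, 738 and 863 in mouse 2, 544 and 569 in mouse 3, 564 and 874 in mouse 4, and 829 and 523 in mouse 6, against 77.8 to 121 CPM in control pieces. Of 18 genes, 9 were called jointly (1 without control mouse 3), beside 15.2% of all genes (4.23%), and 8 were higher in tumor 1 of mouse 1 and 0 in tumor 2, of which only Ccna2, cyclin A2, was left without control mouse 3, beside 3.53% of all genes in that pair (1.71%). Mki67, which marks cycling cells, was at 426 and 190 CPM (1.16 ± 0.21, adjusted p = 0.0332, and 0.0957). In mouse 4 tumor 2 held more of it, at 180 and 365 CPM (-1.06 ± 0.21, adjusted p = 0.043, and 0.109). In mouse 3 the 18 genes had a median absolute log2 difference of 0.12, less than the 0.4 over all genes.

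Tubule genes of the differentiated nephron differed within pairs. All 14 proximal tubule markers and all 15 markers of the distal nephron and collecting duct were called jointly, 9 and 13 without control mouse 3 and 11 and 14 without tumor mouse 2. Over all genes the share was 15.2%, 4.23% and 9.06% in these fits. Of 7 podocyte markers 1 was called (14.3%), also with either mouse left out. The podocyte count depended on the test, since all 7 had a joint unadjusted p under 0.05, as had 35.4% of all genes, and 6 were called by DESeq2, beside 34.3% of all genes, and 5 with the replicate block in the controls. The summed proximal markers were 6050 and 1660 CPM in mouse 1, 1250 and 787 in mouse 2, 521 and 905 in mouse 3, 12000 and 7800 in mouse 4, and 779 and 642 in mouse 6, against 11700 to 17900 CPM in control pieces. The distal markers summed to 2340 and 224 CPM, 528 and 804, 881 and 503, 5800 and 3870, and 373 and 337 in the same order, against 6540 to 7910 CPM in controls. In tumor 1 of mouse 4 the proximal sum thus lay inside the control range and the distal sum just below it, whereas the tumors of mice 3 and 6 had at most 905 CPM of either. The distal list holds Aqp3 and Pvalb, which tumors outside the kidney also carried. In the retro-orbital tumors, scaled with all 28 libraries, they stood at 278 to 427 and 194 to 297 CPM, beside 1.71 to 185 CPM of Umod. Low distal sums are therefore no measure of tubule tissue alone. How much kidney tissue the tumor pieces enclosed was not tested.

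In mouse 1, 12 of 14 proximal and 14 of 15 distal markers were called higher in tumor 1 and 0 in tumor 2, beside 3.53% of all genes, with medians of 3.25 and 5.22 log2 units (9 and 13 genes without control mouse 3, beside 1.71%). Slc12a1, the cotransporter of the thick ascending limb, was at 782 and 6.06 CPM (7.0 ± 0.73, edgeR adjusted p = 0.00412). Miox, a proximal tubule oxygenase of inositol, was at 305 and 4.23 CPM (6.16 ± 0.24, adjusted p = 0.000128). Klk1, the kidney kallikrein, was at 757 and 19 CPM (5.3 ± 0.19, adjusted p = 9.92e-05), and Egf, a growth factor of the distal tubule, at 461 and 4.15 CPM (6.79 ± 0.37, adjusted p = 0.00036). The cell adhesion gene Cdh1 went with them at 102 and 24.8 CPM, and so did the keratin Krt7 at 27.9 and 3.91 CPM. Slc12a3, Rdh16f2 and Abca13 completed the genes with the largest increase in tumor 1. Of the podocyte markers of the same pair 0 of 7 were called by edgeR (3 at an unadjusted p under 0.05), and Nphs1, the slit diaphragm protein nephrin, was at 7.85 and 13.1 CPM.

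In mouse 2 most called markers of both nephron segments were higher in tumor 2, with medians of -3.72 log2 units for the distal and -1.0 for the proximal list. Of the distal markers 13 were higher in tumor 2 and 1 in tumor 1 (13 and 1 without control mouse 3), beside 19.5% of all genes called in this pair (8.43%). Umod, uromodulin of the thick ascending limb, was at 6.37 and 115 CPM (-4.19 ± 0.43, adjusted p = 0.00365), and Slc12a1 at 8.09 and 196 CPM (-4.62 ± 0.65, adjusted p = 0.00767). Of the proximal markers 7 were higher in tumor 2 and 1 in tumor 1 (3 and 1). That 1 was Lrp2, the endocytic receptor megalin, at 988 and 170 CPM (2.52 ± 0.36, adjusted p = 0.00782). Of 9 transcription factors of the renal lineage 5 were higher in tumor 1 and 0 in tumor 2 (4 and 0 without control mouse 3), beside the same 19.5% and 8.43%. Pax8 was at 44.7 and 15.5 CPM (1.51 ± 0.18, adjusted p = 0.00518), Pax2 at 60.1 and 23.5 CPM (1.34 ± 0.27, adjusted p = 0.0197) and Eya1, a factor of nephron progenitors, at 482 and 159 CPM (1.58 ± 0.29, adjusted p = 0.0161) beside 1.05 to 1.67 CPM in controls. In mouse 1 Eya1 was higher in tumor 2, at 23.1 and 63.9 CPM (-1.48 ± 0.29, adjusted p = 0.0469, and 0.134 without control mouse 3).

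In mouse 4, 6 distal markers and 1 proximal marker were called higher in tumor 1 (1 and 0 without control mouse 3) and 0 of either list higher in tumor 2, beside 4.2% of all genes (0.914%). In mouse 3 the nephron lists gave few calls, with 1 proximal marker higher in each tumor and 0 distal markers (0 of either list without control mouse 3), beside 4.81% of all genes (0.914%). Slc6a19, a transporter of neutral amino acids, was at 16.4 and 3.05 CPM (2.45 ± 0.41, adjusted p = 0.0276, and 0.0663) and Slc22a12, the urate transporter, at 3.66 and 12.2 CPM (-1.72 ± 0.26, adjusted p = 0.0194, and 0.0651). Of 9 renal lineage factors, 2 were higher in each tumor of this pair (1 and 1), beside the same shares. Gata3, a factor of the collecting duct, was at 1.52 and 0.238 CPM (2.7 ± 0.31, adjusted p = 0.0106), and Eya1 was at 204 and 76 CPM (1.45 ± 0.29, adjusted p = 0.0434, 0.116 without control mouse 3 and 0.051 under upper quartile scaling). Hnf4a, a regulator of proximal tubule identity, was at 14 and 40.8 CPM (-1.52 ± 0.17, adjusted p = 0.0104), and Krt8, a simple keratin, at 0.742 and 6.3 CPM (-3.06 ± 0.19, adjusted p = 0.00457). In mouse 6 Miox was at 9.35 and 1.06 CPM (3.13 ± 0.22, adjusted p = 0.00681), where 2 proximal markers and 1 distal marker were higher in tumor 1 and 0 in tumor 2 (1 and 0 without control mouse 3), beside 0.894% of all genes (0.0557%). The distal marker was Pvalb, which the retro-orbital tumor of the same mouse also held, at 297 CPM in the scaling over 28 libraries.

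**Figure D4:**
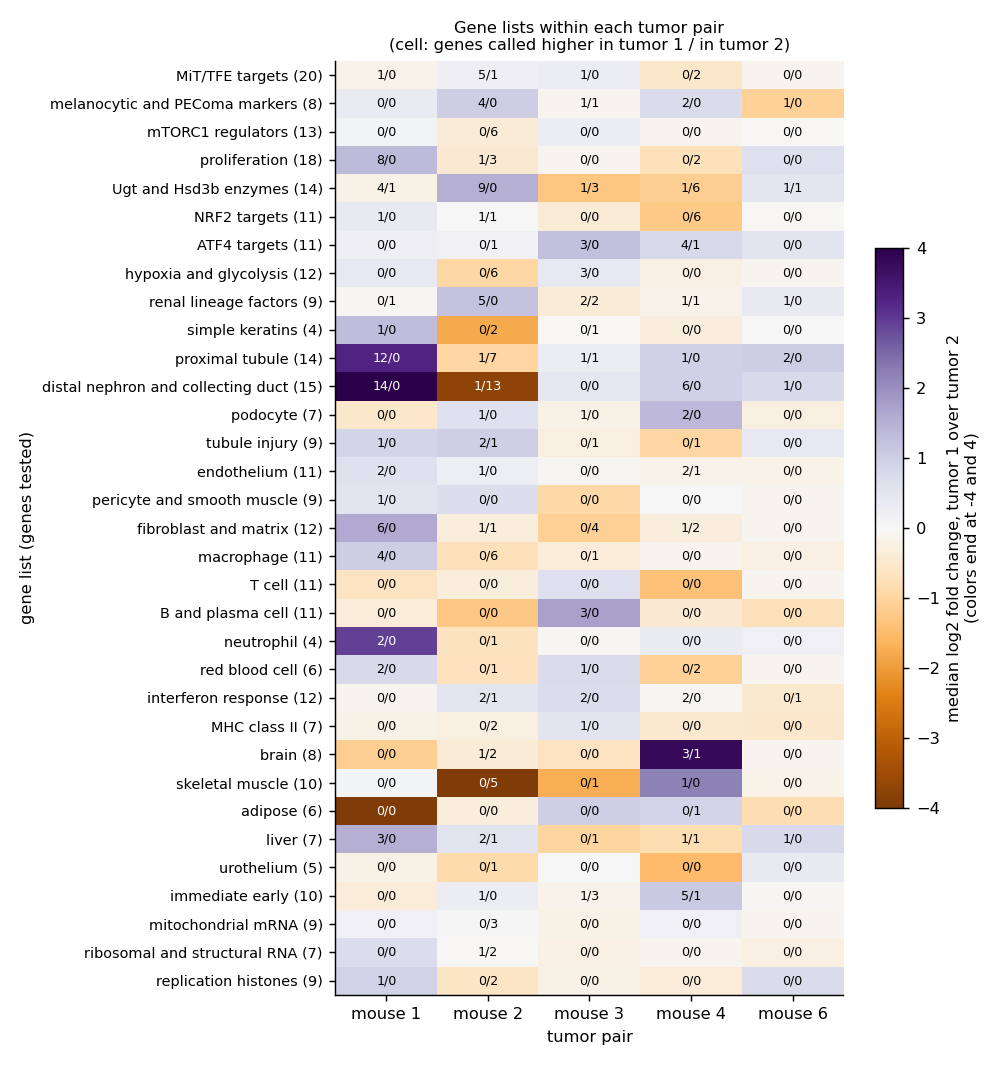
Each cell holds the number of genes of a list called higher in tumor 1 and higher in tumor 2 of a mouse, and the color gives the median log2 difference of the list. The nephron lists stand out in mouse 1, with 12 and 14 genes higher in tumor 1, and in mouse 2, where 13 distal genes were higher in tumor 2.

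Stroma differed within the pairs of mice 1 and 3. Of 12 fibroblast and matrix genes 8 were called jointly (5 without control mouse 3), beside 15.2% of all genes (4.23%). In mouse 1, 6 were higher in tumor 1 and 0 in tumor 2 (4 and 0), and in mouse 3, 4 were higher in tumor 2 and 0 in tumor 1 (2 and 0), beside 3.53% and 4.81% of all genes in these pairs (1.71% and 0.914%). Col1a1, the main chain of type I collagen, was at 1230 and 242 CPM in mouse 1 (2.34 ± 0.39, adjusted p = 0.0261) and at 261 and 1110 CPM in mouse 3 (-2.06 ± 0.39, adjusted p = 0.0373), beside 20.3 to 73.5 CPM in controls. Without control mouse 3 its adjusted p was 0.0633 and 0.0848. Its partner Col1a2 was called in both pairs with and without that animal, at 1110 and 327 CPM in mouse 1 (1.75 ± 0.16, adjusted p = 0.00228, and 0.00901) and at 312 and 1100 CPM in mouse 3 (-1.8 ± 0.16, adjusted p = 0.0054, and 0.0323). Pdgfra, a receptor of stromal cells, was at 226 and 40.2 CPM in mouse 4 (2.46 ± 0.15, adjusted p = 0.00221), where 1 gene of the list was higher in tumor 1 and 2 were higher in tumor 2 (1 and 0), beside 4.2% of all genes (0.914%). Those of tumor 2 were Col3a1, at 139 and 296 CPM (-1.12 ± 0.22, adjusted p = 0.0417, and 0.109), and Sparc, a matrix glycoprotein, at 109 and 194 CPM (-0.86 ± 0.18, adjusted p = 0.0465, and 0.0974), which also missed the threshold under RLE scaling (0.0506) and without control mouse 1 (0.0582). Endothelial genes (11 tested) and pericyte genes (9 tested) had 4 and 1 joint calls, or 36.4% and 11.1% beside 15.2% of all genes, and 0 and 0 without control mouse 3. DESeq2 called 7 and 6 of them, beside 34.3% of all genes, and 6 and 5 were called with the replicate block in the controls.

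Macrophage genes differed chiefly in mice 1 and 2. In mouse 1, 4 of 11 were higher in tumor 1, and in mouse 2, 6 were higher in tumor 2, with 0 called on the other side in either pair, beside 3.53% and 19.5% of all genes. Without control mouse 3 there were 0 and 1 left, and the 1 of 11 in mouse 2 was near the 8.43% of all genes. Jointly 4 were called, 2 without control mouse 3, 2 without tumor mouse 2 and 7 with the replicate block in the controls, beside 15.2%, 4.23%, 9.06% and 24.6%. Tyrobp, an adaptor of myeloid receptors, was at 23 and 76.6 CPM in mouse 2 (-1.75 ± 0.19, adjusted p = 0.00412, and 0.0189), beside 7.96 to 11.4 CPM in controls. C1qa of the complement system was at 75.7 and 34.8 CPM in mouse 1 (1.11 ± 0.18, adjusted p = 0.0205, and 0.0741), and the mannose receptor Mrc1 at 86.7 and 252 CPM in mouse 2 (-1.55 ± 0.38, adjusted p = 0.0332, and 0.063). The median of the list was 1.0 in mouse 1 and -0.73 in mouse 2, and between -0.37 and -0.1 in mice 3, 4 and 6. T cell genes had 0 joint calls by edgeR among 11 tested, with and without control mouse 3, 3 at an unadjusted p under 0.05, 1 call by DESeq2 and 1 with the replicate block. Their sum of 6.17 to 48.9 CPM in tumors overlapped the 13.1 to 25 CPM of control pieces.

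Antibody genes differed in mouse 3. There 3 of 11 B and plasma cell genes were higher in tumor 1 and 0 in tumor 2, and 0 without control mouse 3, beside 4.81% and 0.914% of all genes. Jointly 1 was called (9.09%), 0 without control mouse 3 or tumor mouse 2, and 5 with the replicate block (24.6% of all genes). Jchain, which links secreted antibodies, was at 38.9 and 3.33 CPM (3.57 ± 0.68, adjusted p = 0.038, and 0.0955), and the kappa constant region Igkc at 157 and 22.5 CPM (2.82 ± 0.48, adjusted p = 0.0287, and 0.0677). The median absolute difference of this list was 0.5, 1.01 and 0.53 in the control pairs, so pieces of normal kidney varied in it as well. The interferon-induced protease Usp18 was at 5.76 and 74.2 CPM in mouse 6 (-3.69 ± 0.22, adjusted p = 0.00681) and at 27.4 and 4.79 CPM in mouse 3 (2.54 ± 0.21, adjusted p = 0.00525), and both calls were kept. In mouse 6 it was the 1 gene of 12 in the interferon list to be called, beside 0.894% of all genes.

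Muscle genes marked single tumors. In mouse 2, 5 of 10 skeletal muscle genes were higher in tumor 2 and 0 in tumor 1 (5 and 0 without control mouse 3), beside 19.5% of all genes (8.43%), with a median of -5.45 log2 units. Jointly 4 were called, 2 without control mouse 3 and 1 without tumor mouse 2, beside 15.2%, 4.23% and 9.06%. Ttn, the giant spring protein of the sarcomere, was at 35.7 and 1350 CPM (-5.26 ± 0.29, adjusted p = 0.00119). Myh8, the perinatal myosin heavy chain, was at 2.56 and 314 CPM (-6.95 ± 1.51, adjusted p = 0.0247, and 0.06 without control mouse 3). In mouse 4 tumor 1 held more Ttn, at 1940 and 363 CPM (2.39 ± 0.25, adjusted p = 0.00744), and 495 and 60 CPM of Myh8, a difference that did not pass. The adult fast myosin Myh4 reached only 1.91 CPM in tumor 2 of mouse 2 and 2.5 CPM in tumor 1 of mouse 4. The level of Myh8 over that of embryonic Myh3 was 2.69, 2.76 and 2.75 in the 3 tumors with most of both, namely tumor 2 of mouse 2 and tumors 1 and 2 of mouse 4. In the other tumors, with less of both, it was 2.18 to 4.27, so the ratio did not set those tumors apart. In control pieces it was 1.3 to 2.31. Control pieces held 0.438 to 12.1 CPM of Myh8 and 103 to 221 CPM of Ttn.

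Nervous system genes appeared in tumor 1 of mouse 4. Snap25, a protein of synaptic vesicle release, was at 13.7 and 0.335 CPM (5.32 ± 0.58, adjusted p = 0.0133, with at most 8 counts in a control piece and 0 in 2 of them, so that its error rests on few reads) and the potassium channel Kcna1 at 11.4 and 0.0985 CPM (6.8 ± 0.62, adjusted p = 0.00527). Gfap, the filament of astrocytes, was too rare elsewhere to enter the test and stood at 34.1 CPM in that tumor and at 0.0197 CPM in its partner. The brain tumor of the same mouse held 839 CPM of Dct, 147 CPM of Gfap and 14.6 CPM of Snap25 when scaled with all 28 libraries. In the kidney tumor 3 of 8 tested brain genes were higher in tumor 1 and 1 in tumor 2 (2 and 1 without control mouse 3), beside 4.2% of all genes (0.914%). Jointly 3 were called, 3 without control mouse 3 and 5 with the replicate block, beside 15.2%, 4.23% and 24.6%. That 1 gene of tumor 2 was the neurofilament gene Nefl, at 2.41 and 194 CPM (-6.36 ± 0.69, adjusted p = 0.00808), which was also higher in tumor 2 of mouse 2, at 2.36 and 33 CPM (-3.82 ± 0.61, adjusted p = 0.0111). Kcna1 is not one of the listed brain genes. In the scaling of 28 libraries it also stood at 54.2 CPM in the brain tumor of mouse 1, beside 2.3 CPM of Snap25 and 0.174 CPM of Gfap. Whether nervous tissue was part of tumor 1 of mouse 4 was not tested.

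Fat genes varied widely, also between control pieces. Of 6 tested, 2 were called jointly (0 of 7 without control mouse 3, 1 without tumor mouse 2, 5 with the replicate block, beside 15.2% of all genes), Fabp4 and Plin4, and Fabp4, a fatty acid binding protein, was higher in tumor 2 of mouse 4, at 61.6 and 174 CPM (-1.53 ± 0.26, adjusted p = 0.0286, and 0.0828). Adipoq, the fat cell hormone adiponectin, was at 0.137 and 60.2 CPM in mouse 1 and at 91.7 and 209 CPM in mouse 2, and at no more than 1.05 CPM in the other 6 tumors. In mouse 1, 0 of the 6 were called by edgeR (4 at an unadjusted p under 0.05), and their median difference was -6.65 log2 units. The pieces of control mice 1 and 3 also differed in these genes, with medians of 4.43 and 4.75 units in absolute value. Adrenal, pancreas and urothelium genes had 0 joint calls by edgeR among 2, 2 and 5 tested, also without control mouse 3 (2, 3 and 5 tested), with 0, 0 and 1 at an unadjusted p under 0.05 and 0, 0 and 1 calls by DESeq2. Of liver genes, 5 of 7 were called jointly (4 without control mouse 3, 3 without tumor mouse 2), beside 15.2%, 4.23% and 9.06% of all genes. Among them Cps1, of the urea cycle, was at 0.534 and 44.6 CPM in mouse 4 (-6.41 ± 1.15, adjusted p = 0.0348, and 0.0477).

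Beyond the lists, each pair had its own leading genes. In mouse 1 the salivary-type proline-rich genes Prh1 (2 and 133 CPM) and Prp2 (4.69 and 89.3 CPM), which may share reads, led in tumor 2, ahead of the glutamine transporter Slc38a1, the nuclear receptor Rorb and 1 antibody segment, Ighv1-80. Both proline-rich genes had 0 counts in all 6 control pieces, which allows up to 3 counts per library, so the error of their differences was not measured and no test is given. In mouse 2 the pseudogenes Gm12033 (222 and 1.16 CPM) and Gm8864 (303 and 3.14 CPM) were high in tumor 1, and in the other 8 tumors they reached at most 9.34 and 19.8 CPM. The log2 differences were 7.56 ± 1.29 (adjusted p = 0.0129) and 6.58 ± 0.95 (0.0081), and as processed copies of other genes their counts are uncertain. Both were also high, at 193 and 340 CPM in the scaling of 28 libraries, in the non-transformed kidney of mouse 5. Edil3, a matrix protein, followed at 119 and 3.45 CPM, and Eef1a2 and Adcyap1r1 joined the muscle genes at the head of tumor 2.

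In mouse 3 Ccn3, a secreted matrix protein of the CCN family, was at 712 and 5.28 CPM (7.1 ± 0.59, adjusted p = 0.00525), and the controls held 0.148 to 0.905 CPM. Cyp2a5, a cytochrome that oxidizes coumarin, was at 2000 and 126 CPM (4.01 ± 0.43, adjusted p = 0.00898). Ripply3, a repressor that binds T-box factors, was at 2.26 and 171 CPM (-6.21 ± 0.35, adjusted p = 0.00457), and the cytokine precursor Il16 at 17.8 and 233 CPM (-3.69 ± 0.26, adjusted p = 0.00457). These calls were kept without control mouse 3. Ripply3 also separated mouse 2, at 2.18 and 109 CPM, and its controls were at 1.81 to 2.86 CPM, and in each of these mice 1 tumor was thus inside the control range.

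In mouse 4 the thyrotropin receptor Tshr was at 21.8 and 267 CPM (-3.64 ± 0.36, adjusted p = 0.00668), beside 14.2 to 23 CPM in controls, and the orphan nuclear receptor Nr4a1 at 35.6 and 242 CPM (-2.8 ± 0.28, adjusted p = 0.00668). In both genes tumor 1 of mouse 4 was the lowest of the 10 tumors. Slc38a1 was at 673 and 11.5 CPM there. In mouse 6 the smallest set of differences included Pdk4, which shuts off pyruvate oxidation, at 20.1 and 414 CPM (-4.37 ± 0.2, adjusted p = 0.00273), the inflammatory protease Casp1 at 75.1 and 6.7 CPM (3.48 ± 0.24, adjusted p = 0.00681), and the imprinted gene Peg3 at 19 and 151 CPM (-2.99 ± 0.32, adjusted p = 0.0148, and 0.059 without control mouse 3).

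One chromosome moved as a whole. In mouse 2, 357 of 473 expressed X-linked genes (75.5%) were higher in tumor 2 and the median log2 difference was -0.56, whereas the medians of single autosomes lay between -0.07 and 0.16. The shift ran along the whole chromosome: in 9 windows of 20 Mb its median lay between -0.68 and -0.36. In the other 4 tumor pairs the X median was between -0.1 and -0.01, and in the control pairs between -0.03 and 0.01. Of all 789 X-linked genes tested in the fit 215 were called higher in tumor 2 of mouse 2 and 34 higher in tumor 1 (31.6% in all), and of 20076 autosomal genes 2114 and 1704 (19%). Leaving out the X chromosome, 3761 genes differed in this pair in place of 4081.

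**Figure D5:**
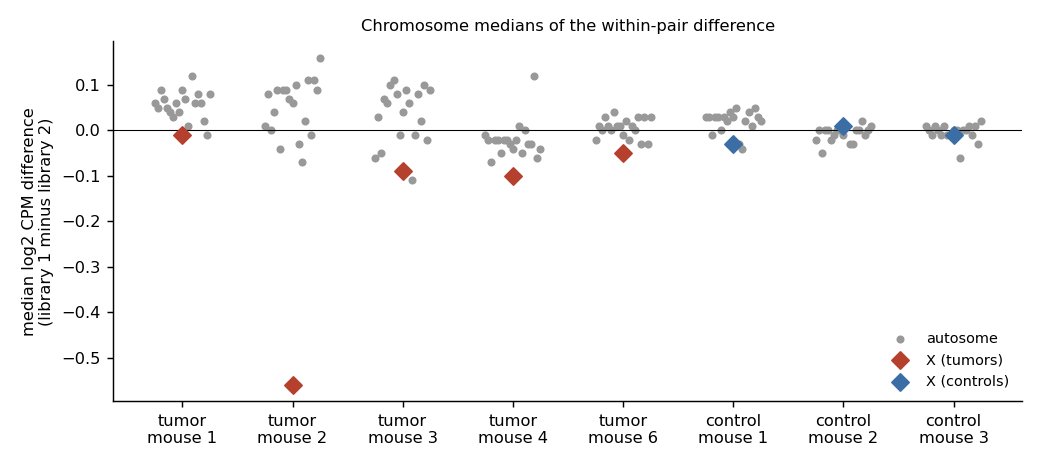
For each of the 8 pairs the points give the median log2 difference of the expressed genes of each chromosome, tumor 1 minus tumor 2 or piece 1 minus piece 2. In mouse 2 the X chromosome lies at -0.56, while the autosomes of every pair stay between -0.11 and 0.16.

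Xist, the RNA that coats the inactive X, was at 24.4 and 10.7 CPM in the tumors of mouse 2, a difference that did not pass, and at 32.5 to 84.6 CPM in control pieces. It was at most 0.071 CPM in mouse 1, where Ddx3y of the Y chromosome was at 149 and 148 CPM. In mouse 2 Ddx3y was at 2.73 and 2.97 CPM and Uty, also on the Y, at 0.619 and 4.13 CPM. In mice 3, 4 and 6 Ddx3y lay between 0.281 and 0.693 CPM and Uty between 0.341 and 0.476 CPM. In 1 piece of control mouse 1 Ddx3y reached 1.2 CPM. Of the 5 sex-linked genes listed 0 were called within pairs by edgeR, with or without control mouse 3 (1 at an unadjusted p under 0.05 and 1 by DESeq2), and 3 were called jointly with the replicate block in the controls. The origin of the low Y-linked counts was not tested.

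Some genes differed between mice by more than within them. Of 22224 genes tested over the 10 tumors 702 (3.16%) differed between mice by more than between the tumors of a mouse, and 5996 had an unadjusted p under 0.05. In control kidney 132 of 21470 did (0.615%). The count in tumors was 5 without mouse 3, 8 without mouse 6 and 60 without mouse 4, and 68 with the tumor number as a replicate block, so that it depends on single animals. In controls the piece number as a replicate block gave 770 (the control pieces of a number deviated together, as given above), and leaving out 1 mouse gave 24 to 517. Of the 702 genes 194 were also called within pairs and 12 between control mice, 6 were Y-linked and 14 X-linked. By Xist and Ddx3y, given above, mouse 1 alone of these mice had the pattern of a male. Its differences from the other mice therefore cannot be told apart from sex. Without mouse 1 the count was 820.

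Fndc1, a fibronectin-domain protein, was at 9.52 and 8.71 CPM in mouse 1, 46.4 and 38.7 in mouse 2, 0.752 and 0.743 in mouse 3, 4.47 and 8.46 in mouse 4, and 0.971 and 1.51 in mouse 6 (edgeR adjusted p = 0.00924). Lbp, which binds bacterial lipopolysaccharide, was at 38.5 and 45.7, 107 and 110, 72.2 and 70.5, 7.93 and 10.3, and 17.4 and 12.4 CPM in the same mice (adjusted p = 0.00924). In both genes the tumors of mouse 2 were the highest. Without mouse 3 the adjusted p of Fndc1 was 0.0509 and that of Lbp 0.0442. Of the 10 leading genes Lbp alone was still called without mouse 3, 4 without mouse 6, and all 10 without mouse 1, 2 or 4. The actin bundler Pls1, the peptidase Mme and the cytochrome Cyp2e1, genes of the tubule brush border or of tubule metabolism, belonged to the 10 leading genes too, with C4b, Dock2, Lsr, Pter and Cdo1. Cyp2e1 was at 453 and 259, 163 and 434, 3.08 and 2.3, 186 and 129, and 2.23 and 1.19 CPM (adjusted p = 0.0144 between mice, and 0.0509 without mouse 3), and it was also called within pairs (joint adjusted p = 0.0176), with a log2 difference of -1.43 ± 0.21 in mouse 2 (adjusted p = 0.00872). The level was low in both tumors of mice 3 and 6 and high in both tumors of the other mice. In non-transformed kidney, scaled with all 28 libraries, Cyp2e1 was at 1330 and 913 CPM in mice 1 and 5, where Ddx3y was high. In mice 3 and 4, with little Ddx3y, it was at 249 and 355 CPM. The part of sex was not tested. Of the 702 genes 448 (63.8%) had a lower mean in tumors than in control kidney, beside 10094 of the 22224 genes tested (45.4%).

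Between control mice the leading genes were of another kind. Cwc22, a splicing factor, was at up to 558 CPM in control mouse 2 and at 63.5 to 76 CPM in the other control pieces. Gm10260, Gm15459, Gm4735 and Eno1b, predicted genes or retrocopies whose reads may be shared with a parent gene, were each high in both pieces of 1 control mouse only.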

How the data were processed

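RNA was measured in kidney tumors and control kidneys of mice by stranded total RNA sequencing of fixed tissue. The counts analysed here are raw read counts per gene as the authors deposited them, not normalized. Per the labels' processing notes, FastQC, MultiQC, Bowtie2 and STAR 2.5.2a were used with mouse build mm10, and the counting tool is not given in the sources used here. In these libraries 79.5% to 84.3% of counts no larger than 20 (and above 0) were even numbers, as when both mates of a fragment are counted, which overstates the precision of low counts. Halved counts were run as an alternative. Of 53379 genes 53274 matched the GENCODE annotation of that build.

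Counts of the 16 libraries were scaled by TMM in edgeR 4.0.16 (R 4.3.3) and filtered with filterByExpr. Log2 CPM used a prior count of 2. Differences are tumor 1 minus tumor 2. Over 14958 genes with a mean CPM of at least 1 the absolute differences were summarized per pair and compared by an exact permutation test. Quasi-likelihood F-tests with Benjamini-Hochberg adjustment over all genes tested each within-pair difference and all 5 together, with 3 residual degrees of freedom from the control pairs, and mouse differences within tumors (5 degrees of freedom) and within controls (3). limma 3.58.1, DESeq2 1.42.0, RLE and upper quartile scaling, other filters, a test against a 1.5-fold change and leaving out each mouse were alternatives. The tests were first run on simulated counts with known changes. Restricting to genes higher in tumors or to a mean CPM of at least 1 in both groups, leaving X chromosome genes out of the pair analyses, and list counts under other scalings, halved counts, DESeq2 or with a mouse left out, were alternatives chosen after seeing the data. Values of other sites of the same mice come from a scaling over 28 libraries.

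The pairs, gene lists and genes were chosen with earlier results of these data known, and no list was given a test of its own. Named genes are the list members, the 5 genes with the largest difference each way per pair among called genes averaging a log2 CPM of 4 or more in that pair, the 10 with the largest median difference among joint calls at the same level, the 10 with the smallest p between tumor mice at a log2 CPM averaging 2 or more, and the 5 between control mice. Ttn, Myh3, Kcna1, Tshr, Cdh1 and Tfe3 with Aspscr1 were named after their values were seen, and 1 gene that the rule names is not reported here. The labels do not say that the numbers 1 and 2 mark anything shared between mice. Within-pair differences correlated at -0.25 to 0.18 between tumor pairs (1 of 10 combinations over 0.1). This check showed no common effect of the tumor number but cannot exclude one. Between control pairs they correlated at 0.14 to 0.41 (3 of 3 over 0.1), so a replicate block in the controls was added as an alternative after seeing the data. P-values measure the spread between these pieces. Tumor mouse 5 and all libraries of other tissues entered no test.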

Additional observations from a re-analysis of the deposited data

Results flagged for a closer look

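Of 150 groups of values examined, 31 held a sample whose gap to the nearest other value was too large a part of the group's range by Dixon's test, where chance gives about 1 in 20, or 7.5. Most of these genes were named for large differences between these same libraries, so the excess over chance follows from that choice and is no result. The number of genes called in the pair of mouse 2 (4081) stood apart from the other 4 pairs, and the X chromosome level of its tumor 2 (0.823 log2 units) from the other tumors.

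Tumor 1 of mouse 4 stood highest for nephron genes, with Slc12a3 at 1380, Miox at 722, Slc22a8 at 240, Klk1 at 3230, Egf at 1250, Slc6a19 at 174, Gata3 at 17.3 and Ugt2b38 at 261 CPM. It also stood apart for Dct at 413, Snap25 at 13.7, Kcna1 at 11.4, Asns at 75 and Phgdh at 34.5 CPM. Its partner stood apart for Nefl at 194 and Cps1 at 44.6 CPM. In mouse 2, tumor 1 stood apart for Pmel at 500, Eya1 at 482, Gm12033 at 222 and Gm8864 at 303 CPM, and tumor 2 for Rragb at 434 and Cyp2a5 at 5120 CPM. In mouse 6, tumor 2 stood apart for Usp18 at 74.2 CPM and tumor 1 for Casp1 at 75.1 CPM. Tumor 1 of mouse 3 stood apart for Peg3 at 645 CPM.

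Among control pieces, single values stood apart for Klk1 (3340 CPM), Gata3 (23.6 CPM) and Nefl (1.04 CPM) in piece 1 of mouse 2, for Myh8 (12.1 CPM) in piece 2 of mouse 1 and for Gm8864 (9.19 CPM) in piece 1 of mouse 1.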

How the results depend on the processing

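No difference between tumor and control pairs and no named gene changed direction under an alternative that was run, but the balance of calls in mouse 3 turned from 525 against 481 to 397 against 573 under upper quartile scaling. The larger difference of tumor pairs than of control pairs was 0.143 with no filter on low genes (exact permutation p = 0.107), 0.118 at a mean CPM of at least 10 (p = 0.0714), 0.361 as an SD over genes (p = 0.0714), 0.144 in genes higher in tumors (p = 0.0714, chosen after seeing the data) and 0.105 to 0.176 when 1 mouse was left out, where p cannot pass the threshold. The share past 2-fold was 23.3% in tumors and 14.8% in controls with no filter, 6.49% and 0.721% at a CPM of at least 10, and 4.02% and 1.17% past 4-fold. The joint count of 3188 was 5049 with no filter, 0 with limma on the absolute differences (534 of 14958 at an unadjusted p under 0.05), 7184 with DESeq2, 5143 with a replicate block in the control pairs (7 of the 3188 were not among them; chosen after seeing the data) and 912 (without control mouse 3) to 3874 (without control mouse 2) when 1 mouse was left out, with 1864 without tumor mouse 2, and 145 called list genes became, in alternatives chosen after seeing the data, 224 with DESeq2 and 71 (without control mouse 3) to 181 (without control mouse 2) with 1 mouse left out.

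Against a 1.5-fold change 463, 1390, 349, 300 and 104 genes were called in mice 1, 2, 3, 4 and 6 (2.21%, 6.65%, 1.67%, 1.43% and 0.497% of those tested), and with no filter 1520, 1601 and 508 in mice 3, 4 and 6 (4.43%, 4.67% and 1.48%). The shares with no filter were 3.18% and 12.8% in mice 1 and 2. At a CPM of at least 10 the shares were 5.22% (442 genes), 34.9%, 12.5%, 8.37% and 2.68% in mice 1, 2, 3, 4 and 6, and with a replicate block in the control pairs, chosen after seeing the data, 5.49%, 25.2%, 8.35%, 8.45% and 2.23%. With 1 mouse left out the share called was lowest without control mouse 3 and highest without control mouse 2, at 1.71% and 4.37% in mouse 1, 8.43% and 20.6% in mouse 2, 0.914% and 5.56% in mouse 3, 0.914% and 6.25% in mouse 4 and 0.0557% and 1.31% in mouse 6. The count between tumor mice was 2227 with no filter, 317 at a CPM of at least 10, 5905 with DESeq2, 5, 8 and 60 without tumor mouse 3, 6 or 4, up to 820 with another mouse left out, and 68 with a replicate block. Between control mice it was 1262 with no filter, 2683 with DESeq2, 24, 28 and 517 without control mouse 3, 1 or 2, and 770 with a replicate block.

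The 94 differences of a named gene within a pair had 1439 values under alternatives, of which 1380 kept their call and 59 were no longer called, 29 of them without control mouse 3 and 25 against a 1.5-fold change. The causes were not tested, beyond the fewer libraries of the fits that leave out a mouse. A limit of all these counts is that each tumor was sequenced once and that 3 control pairs set the error.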

Other observations

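Other lists gave the following joint calls, beside 15.2% of all genes (4.23% without control mouse 3). Of 10 immediate early genes, which respond within minutes to stimuli or to the handling of tissue, 6 were called jointly and 4 without control mouse 3. In mouse 4, 5 were higher in tumor 1 and 1 in tumor 2, and in mouse 3, 1 was higher in tumor 1 and 3 in tumor 2. When control mouse 3 was left out these were 1 and 1 in mouse 4 and 0 and 1 in mouse 3. Of all genes 4.2% and 4.81% were called in these pairs, and 0.914% in each without control mouse 3. Fos, a subunit of the AP-1 factor, was at 7.52 and 1.12 CPM in mouse 4 and at 1.34 and 11.3 CPM in mouse 3, and both calls were kept without control mouse 3. Of 9 tubule injury genes 3 were called (1 of 10 tested without control mouse 3, 6 with the replicate block in the controls). Vcam1, an adhesion molecule, was among them, at 44.7 and 421 CPM in mouse 4. Its call in that pair was kept without control mouse 3 and its joint call was not. Of 12 interferon genes 5 were called (2 without control mouse 3, 3 without tumor mouse 2), and of 7 MHC class II genes 3 (0 and 2).

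Among blood genes, 2 of 6 red blood cell genes and 2 of 4 neutrophil genes were called (2 and 0 without control mouse 3, 4 and 2 with the replicate block), and of 4 simple keratins 2 (2). Of 9 replication histone genes 3 were called, 0 without control mouse 3 and 8 with the replicate block. Of 9 mitochondrial messenger RNAs 1 was called, or 11.1% (0 without control mouse 3 or tumor mouse 2), and the list's sums were 16400 to 23200 CPM in tumors and 14400 to 22900 CPM in controls. Of 7 ribosomal and structural RNAs 1 was called, or 14.3% (0 and 0, and 3 with the replicate block). The mitochondrial ribosomal RNA mt-Rnr1 was at 221 and 42.4 CPM in mouse 1 and at 20.8 and 210 CPM in mouse 2, of which only the difference in mouse 2 was called, beside 279 to 954 CPM in controls.

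Within-pair differences followed transcript length weakly across genes, with Spearman correlations of -0.18, 0.27, -0.15, 0.11 and -0.19 in tumor mice 1, 2, 3, 4 and 6 and of 0.22, 0.23 and 0.02 in the control pairs. Genes are not independent replicates, and the part of length in the calls was not tested.

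Some genes that separated the tumors of a pair were also measured in tumors at other sites, in the scaling over 28 libraries. Pmel was at 470 to 1130 CPM in the retro-orbital tumors, Usp18 at 56.8 to 82.2 CPM in the same tumors, and Ccn3 at 535 CPM in the retro-orbital tumor of mouse 6, whose kidney tumors held 65.5 and 533 CPM. In the other retro-orbital tumors Ccn3 was at 19.1 to 33.5 CPM. The brain tumors held 86.1 to 574 CPM of Pmel, 2.13 to 62.5 CPM of Usp18 and 15 to 50.3 CPM of Ccn3.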
